A study of Homo sapiens with 30 samples.

Results

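Immediate early genes are the first genes to be transcribed when a cell meets a growth factor, serum, stress or a mechanical disturbance, and their transcription needs no new protein. MAP kinase cascades switch them on through serum response factor with its partners and through CREB, and their mRNAs are short-lived, so their level at harvest follows recent events. Several of them encode transcription factors that carry the signal on, while others encode inhibitors that end it, and detaching, dissociating and sorting cells are themselves known to raise many of them. The 10 genes described here were chosen by name and found by their row in both count tables, so they are 10 of 26475 genes in each. FOS, FOSB, JUN and JUNB are subunits of the dimeric transcription factor AP-1, ATF3 is a stress-responsive relative of the ATF/CREB family, EGR1 is a zinc finger transcription factor and IER2 is a nuclear protein of the early response. DUSP1 is a phosphatase that inactivates MAP kinases, ZFP36 (tristetraprolin) binds AU-rich mRNAs and marks them for decay, and BTG2 restrains proliferation and binds the CCR4-NOT deadenylase. All 10 passed the filter on low counts in both tables.

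The cells were lineages of MDA-MB-231, a cell line of human triple-negative breast cancer, which the study's design text calls clones and whose genotype is labelled wild type. In the first table of 18 libraries, lineages 22, 35 and 45 had each spent 15 days in a co-culture of 6 members, passaged through a bottleneck every 3 days, before each was sorted out by FACS, and each was also grown alone for about 24 h (isolation). Isolated cells alone make up the second table, 12 libraries of lineages 03, 10, 13 and of Pop, a group that the labels leave undefined. Every group had 3 libraries and the same RPMI medium with 10% dialyzed serum and 2 mM glutamine. Isolated cells were lysed in their dish with TRIzol, whereas co-cultured cells were detached, sorted and extracted with another column kit. Co-culture, its length, sorting and RNA preparation therefore go together in all 3 lineages and cannot be told apart, and every co-culture value below measures them as one. Whether the 3 libraries of each group were grown as separate cultures is not given, so p-values measure their spread only, which may be technical.

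Depth was even, with 29.8 M to 38.8 M counts (M, 1e6) per library in the first table and 28.1 M to 35.4 M in the second. The libraries carried the markers of the labelled cell line: VIM, CD44, AXL, CAV1 and MET summed to 5454 to 10310 CPM (counts scaled to 1e6 per library) over all libraries, whereas of 5 genes known to be low in it, ESR1 and PGR were at most 0.0962 and 0.303 CPM, CDH1 was at most 2.17, ERBB3 was 2.01 to 10.5 and GATA3 was 5.57 to 24.5. The co-culture libraries labelled 35 correlated less with isolated lineage 35 (mean Pearson r = 0.924 over 14570 genes) than with isolated lineage 45 (0.964) or 22 (0.95), whereas co-cultured 22 and 45 were most like their own isolated libraries (0.962 and 0.97). Changes given for lineage 35 rest on the labels as deposited, and values for lineages 22 and 45 were also computed without the 6 libraries of lineage 35. In the second table, Pop replicate 1 differed most from the other libraries of its group, with a chi-square per gene of 54.5 and 74.7 against 6.46 between the other two. In the co-culture groups of the first table, replicate 3 of lineage 22 stood out, at 47.0 and 34.6 against 16.1. Replicate 1 stood out in co-cultured 35 (33.8 and 31.6 against 10.5) and in co-cultured 45 (37.15 and 46.8 against 19.3).

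The genes lie on 4 chromosomes. In GRCh38 coordinates (GENCODE 29), FOS is at chr14:75278774-75282230 on the forward strand, DUSP1 at chr5:172768090-172771195 on the reverse strand, ZFP36 at chr19:39406813-39409412 and EGR1 at chr5:138465490-138469315, both on the forward strand. JUN, BTG2 and ATF3 are on chromosome 1, and JUNB, IER2 and FOSB are on chromosome 19. The promoters of the 3 genes that rose in every lineage are printed below, with that of EGR1 beside them as the member with serum response elements close to its start. Each runs from 250 bases before the RefSeq start site to 50 after it, 5′ to 3′ on the strand of the gene (GRCh38.p14). Capitals mark motifs found on either strand, namely the CArG box bound by serum response factor, the CRE letters TGACGTCA bound by CREB and ATF proteins, the AP-1 letters TGANTCA, the EGR letters GCGNGGGCG and the SP1 letters GGGCGG.
FOS (chr14:75278578-75278877, forward): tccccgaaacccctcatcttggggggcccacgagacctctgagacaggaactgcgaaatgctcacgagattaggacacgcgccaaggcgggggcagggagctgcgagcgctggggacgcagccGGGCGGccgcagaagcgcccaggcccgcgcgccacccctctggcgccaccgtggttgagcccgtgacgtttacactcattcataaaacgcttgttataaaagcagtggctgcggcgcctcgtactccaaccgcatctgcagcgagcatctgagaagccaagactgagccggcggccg
DUSP1 (chr5:172771146-172771445, reverse): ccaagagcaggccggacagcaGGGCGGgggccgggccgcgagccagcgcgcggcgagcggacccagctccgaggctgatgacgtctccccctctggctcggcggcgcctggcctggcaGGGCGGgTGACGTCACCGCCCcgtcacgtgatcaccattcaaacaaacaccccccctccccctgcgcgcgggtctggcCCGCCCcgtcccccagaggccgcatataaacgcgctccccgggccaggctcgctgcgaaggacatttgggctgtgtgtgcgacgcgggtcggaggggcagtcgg
ZFP36 (chr19:39406597-39406896, forward): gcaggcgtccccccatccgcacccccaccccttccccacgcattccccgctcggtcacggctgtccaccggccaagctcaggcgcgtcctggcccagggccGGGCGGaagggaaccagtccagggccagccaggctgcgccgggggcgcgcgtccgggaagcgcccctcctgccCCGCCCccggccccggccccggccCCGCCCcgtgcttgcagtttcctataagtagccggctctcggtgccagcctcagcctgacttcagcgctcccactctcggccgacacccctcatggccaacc
EGR1 (chr5:138465229-138465528, forward): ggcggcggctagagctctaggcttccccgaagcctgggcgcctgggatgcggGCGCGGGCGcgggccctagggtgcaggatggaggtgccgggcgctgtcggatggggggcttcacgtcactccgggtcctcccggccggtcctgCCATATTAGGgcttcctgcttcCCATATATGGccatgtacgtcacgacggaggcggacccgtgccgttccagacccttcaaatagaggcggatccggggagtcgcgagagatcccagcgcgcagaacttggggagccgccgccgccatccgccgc

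All 10 genes had a promoter in the RefSeq table, ATF3 with 2 windows. Of these 10, EGR1 held the CArG box, at 2 places that begin 105 and 83 bases before its start, against 1.29% of all 35116 promoters. DUSP1 held the full CRE, beginning 125 bases before its start, against 1.85% of promoters. The EGR letters were in EGR1 and BTG2 (9.43% of promoters), and in BTG2 they overlapped SP1 letters. The SP1 letters were in 8 of the 10 genes, all but EGR1 and JUNB, and in 45.0% of promoters. The AP-1 letters were in none of the 10 genes and in 7.71% of promoters. A window without a motif says only that these letters are not within it.

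Co-culture against isolation was compared within each lineage first. FOS, DUSP1 and ZFP36 rose in co-cultured cells of all 3 lineages, by 6.39- to 16.8-fold, 3.35- to 14.1-fold and 1.67- to 2.08-fold. In lineage 22 ATF3 fell and the other 6 were not called. All but JUN were called in lineage 35, where BTG2 was the one that fell. In lineage 45 all but FOSB and ATF3 rose. The counts were 3 higher and 1 lower of 10 in lineage 22, where 27.0% of all genes tested were higher and 30.0% lower. They were 8 higher and 1 lower in lineage 35, where 32.7% of genes were higher and 32.9% lower, and 8 higher and 0 lower in lineage 45, where 18.6% were higher and 23.2% lower. The share of all genes higher in all 3 lineages was not computed. Calls are at an adjusted p below 0.05 in edgeR's quasi-likelihood test with Benjamini-Hochberg adjustment over all 14570 genes, and an uncalled gene is not shown to be unchanged. In bulk RNA, fewer cells expressing a gene and less RNA per cell cannot be told apart.

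**Figure D1:**
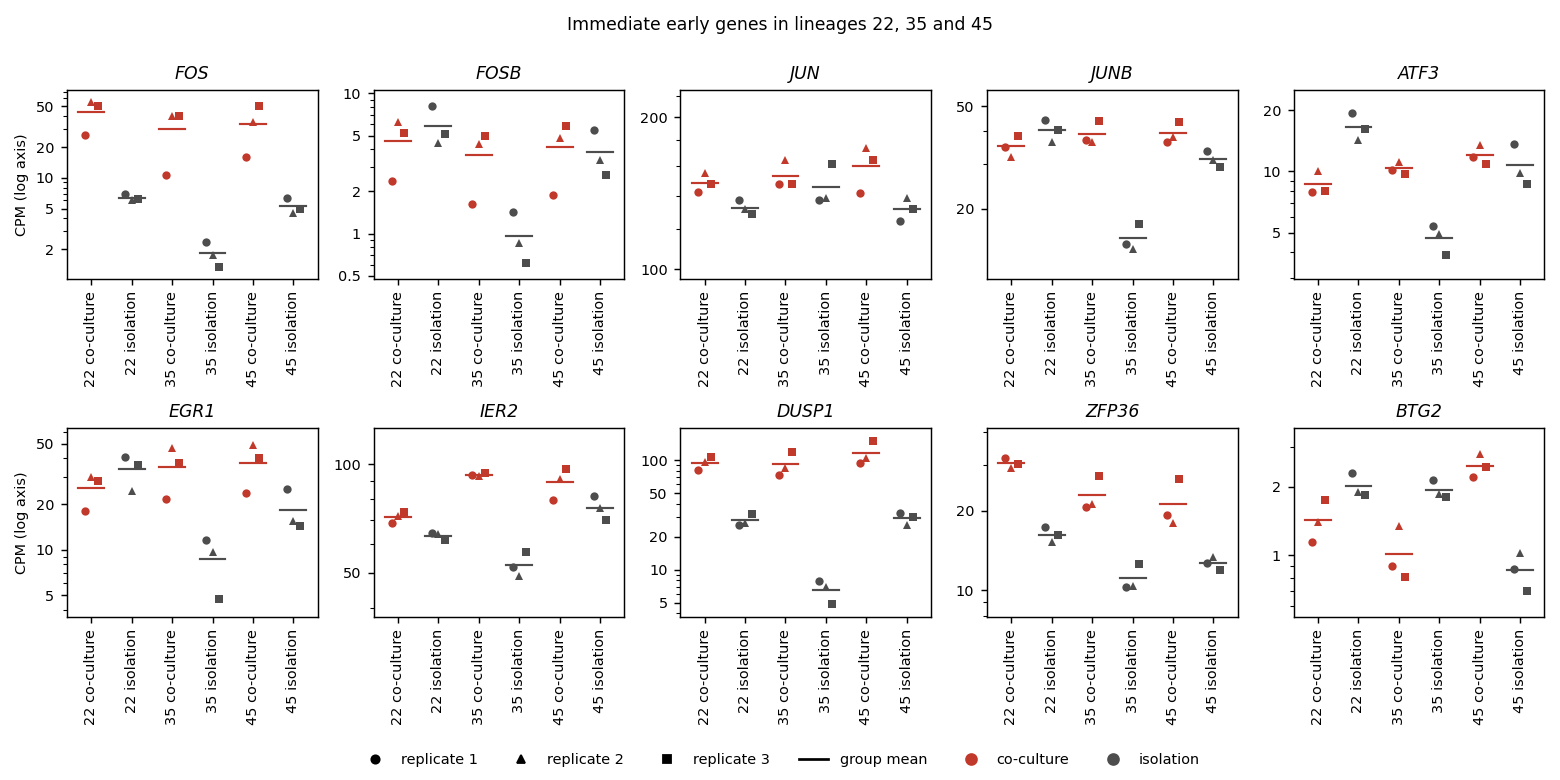
TMM-normalized CPM on a log axis of each of the 10 genes in the 18 libraries of the first table, with co-culture (red) left of isolation (grey) for each lineage, the marker shape giving the replicate number and the bar the group mean of 3 libraries. FOS, DUSP1 and ZFP36 are higher in every co-culture library than in every isolation library of the same lineage, and isolated lineage 35 has the lowest mean of 8 genes, all but JUN and BTG2.

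FOS, the subunit of AP-1 most often used as a mark of recent stimulation, had 26.4, 55.6 and 50.0 CPM in the 3 co-culture libraries of lineage 22 (replicates 1, 2 and 3), against 6.90, 6.09 and 6.20 in isolation. In lineage 35 it had 10.7, 40.0 and 40.6 CPM in co-culture, against 2.36, 1.75 and 1.34 in isolation. In lineage 45 it had 15.9, 35.3 and 50.5 CPM in co-culture, against 6.39, 4.56 and 4.98 in isolation. No co-culture library overlapped an isolation library of its lineage, and the lowest co-culture value of each lineage was replicate 1. The log2 fold changes were 2.78 ± 0.52 (SE), 4.07 ± 0.60 and 2.68 ± 0.52 for lineages 22, 35 and 45 (edgeR, adjusted p = 5.95e-04, 5.46e-05 and 0.00141). Without the 3 co-culture libraries numbered 1 they were 3.05, 4.48 and 3.02.

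FOSB, a close relative of FOS that pairs with the same JUN proteins, rose with it in lineage 35 and was not called in lineages 22 and 45. It had 2.38, 6.24 and 5.18 CPM in co-cultured lineage 22, against 8.11, 4.42 and 5.13 in isolation, and 1.90, 4.77 and 5.86 CPM in co-cultured lineage 45, against 5.49, 3.38 and 2.63 in isolation. Both pairs of groups overlapped, with log2 fold changes of -0.36 ± 0.48 and 0.13 ± 0.49 (adjusted p = 0.546 and 0.857), and FOSB in lineage 22 was called lower only with a replicate block within condition (-0.42, edgeR, adjusted p = 0.0222). In lineage 35 FOSB had 1.64, 4.33 and 4.98 CPM in co-culture, against 1.42, 0.86 and 0.62 in isolation. There the groups did not overlap, the isolation libraries held 20 to 44 FOSB counts, and FOSB rose by 1.92 ± 0.58 on the log2 scale (edgeR, adjusted p = 0.00945).

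JUN, the AP-1 subunit that can pair with itself, varied little. In lineage 22 it had 143, 155 and 147 CPM in co-culture, against 137, 132 and 129 in isolation, without overlap. Lineage 35 had 148, 165 and 147 CPM in co-culture, against 137, 139 and 162 in isolation, which overlapped. Lineage 45 had 142, 174 and 165 CPM in co-culture, against 125, 139 and 132 in isolation, again without overlap. It rose in lineage 45 by 0.28 ± 0.09 on the log2 scale (adjusted p = 0.0114), a call that was lost without isolation replicate 1 (0.0528) or co-culture replicate 2 (0.0707) of that lineage. In lineages 22 and 35 the log2 fold changes were 0.16 ± 0.09 and 0.07 ± 0.08 (edgeR, adjusted p = 0.105 and 0.469). JUN was called higher in lineage 22 by DESeq2 (0.0438) and in the edgeR fit of the compared groups alone (adjusted p = 0.0416).

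JUNB, an AP-1 subunit that can oppose JUN, rose most in lineage 35. In lineage 35 it had 36.8, 36.2 and 44.0 CPM in co-culture, against 14.7, 14.0 and 17.5 in isolation, a rise of 1.35 ± 0.11 on the log2 scale (adjusted p = 2e-09). In lineage 45 it had 36.4, 38.1 and 43.4 CPM in co-culture, against 33.4, 31.0 and 29.1 in isolation, a rise of 0.33 ± 0.11 (adjusted p = 0.0173). That call was lost without isolation replicate 3 (0.0725) or co-culture replicate 3 (0.0807) of lineage 45 and with library totals in place of composition factors (0.0503). In lineage 22 it had 34.9, 31.9 and 38.5 CPM in co-culture, against 44.4, 36.4 and 40.5 in isolation, and these groups overlapped (-0.21 ± 0.11, adjusted p = 0.108). It was called lower in lineage 22 with library totals alone (-0.35, edgeR, adjusted p = 0.0121).

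ATF3, which stress pathways induce and which represses many of its own targets, changed in opposite directions. It fell in lineage 22, with 7.89, 10.1 and 8.04 CPM in co-culture against 19.4, 14.2 and 16.2 in isolation, and rose in lineage 35, with 10.1, 11.2 and 9.73 CPM in co-culture against 5.39, 4.93 and 3.86 in isolation. Neither pair of groups overlapped. The log2 fold changes were -0.93 ± 0.16 in lineage 22 and 1.13 ± 0.17 in lineage 35 (edgeR, adjusted p = 7.12e-05 and 8.31e-06). In lineage 45 the groups overlapped, at 11.8, 13.5 and 10.8 CPM in co-culture and 13.6, 9.88 and 8.69 CPM in isolation (0.17 ± 0.16, adjusted p = 0.42).

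EGR1, which links growth signals to the transcription of many later genes, rose in lineages 35 and 45 and not detectably in 22. In lineage 35 it had 21.5, 46.8 and 37.6 CPM in co-culture, against 11.7, 9.67 and 4.70 in isolation, without overlap (2.02 ± 0.42 on the log2 scale, adjusted p = 8.04e-04). In lineage 45 it had 23.6, 48.7 and 40.4 CPM in co-culture, against 25.1, 15.4 and 14.4 in isolation, so co-culture replicate 1 fell within the isolation range (1.04 ± 0.39, adjusted p = 0.0493). In lineage 22 it had 17.9, 30.0 and 28.4 CPM in co-culture, against 40.9, 24.5 and 36.4 in isolation (-0.42 ± 0.39, adjusted p = 0.375). The EGR1 call in lineage 45 stood close to the threshold: it was lost under 15 alternatives, with adjusted p up to 0.169 without co-culture replicate 2 of that lineage, and it was kept without the 3 co-culture libraries numbered 1 (edgeR, adjusted p = 0.011). Of the 18 libraries, 12 ended it when left out, namely all 3 of isolated 22, replicates 2 and 3 of co-cultured 22, replicates 1 and 2 of isolated 35, replicate 3 of co-cultured 35, replicates 2 and 3 of isolated 45 and replicates 2 and 3 of co-cultured 45.

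IER2 varied little within groups and was called higher in lineages 35 and 45. In lineage 35 it had 93.6, 92.6 and 94.8 CPM in co-culture, against 51.9, 49.1 and 57.0 in isolation (0.83 ± 0.08 on the log2 scale, adjusted p = 2.77e-08). In lineage 45 it had 79.4, 91.1 and 97.0 CPM in co-culture, against 81.7, 75.4 and 69.8 in isolation, which overlapped (0.24 ± 0.08, adjusted p = 0.0245). In lineage 22 it had 68.8, 71.8 and 73.8 CPM in co-culture, against 64.2, 64.0 and 61.8 in isolation, without overlap but uncalled (0.17 ± 0.08, adjusted p = 0.0761). The IER2 call in lineage 45 was lost without isolation replicate 2 (0.0649) or 3 (0.121) or co-culture replicate 2 (0.0704) or 3 (0.112) of that lineage, with library totals (0.0713) and in the fit of the compared groups alone (0.0719). In lineage 22 IER2 was called higher by DESeq2 (adjusted p = 0.0323), with RLE factors (0.0415), in the fit of the compared groups alone (0.033), without co-culture replicate 1 of lineage 45 (0.0417) and without the 3 co-culture libraries numbered 1 (0.0413).

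DUSP1, the MAP kinase phosphatase that FOS-inducing signals also induce, rose in all 3 lineages. It had 81.7, 96.7 and 106 CPM in co-cultured lineage 22, against 25.6, 26.8 and 32.3 in isolation. In lineage 35 it had 72.6, 84.8 and 119 CPM in co-culture, against 7.88, 6.90 and 4.86 in isolation, and in lineage 45 it had 94.3, 106 and 151 CPM in co-culture, against 32.7, 25.4 and 30.2 in isolation. Every co-culture library was above every isolation library of its lineage. The log2 fold changes were 1.75 ± 0.21, 3.82 ± 0.24 and 1.99 ± 0.21 (edgeR, adjusted p = 5.85e-06, 1.21e-09 and 3.92e-06). Replicate 1 was the lowest and replicate 3 the highest co-culture library in each lineage.

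ZFP36, which shortens the life of cytokine and other early mRNAs, rose in each lineage by 1.67- to 2.08-fold. It had 31.7, 29 and 30.2 CPM in co-cultured lineage 22, against 17.4, 15.3 and 16.2 in isolation, 20.7, 21.3 and 27.2 CPM in co-cultured lineage 35, against 10.3, 10.4 and 12.6 in isolation, and 19.3, 17.9 and 26.5 CPM in co-cultured lineage 45, against 12.7, 13.4 and 12 in isolation. No groups of a lineage overlapped. The log2 fold changes were 0.90 ± 0.13, 1.06 ± 0.13 and 0.74 ± 0.13 (edgeR, adjusted p = 1.14e-05, 9.62e-07 and 1.93e-04). The rises of FOS, DUSP1 and ZFP36 were called in all 3 lineages under every alternative run.

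BTG2, the member with the fewest reads in total (28 to 95 counts per library in the first table), changed in opposite directions. In lineage 45 it had 2.21, 2.78 and 2.43 CPM in co-culture, against 0.87, 1.03 and 0.70 in isolation, a rise of 1.51 ± 0.22 on the log2 scale (adjusted p = 2.26e-05). In lineage 35 it had 0.89, 1.35 and 0.81 CPM in co-culture, against 2.13, 1.86 and 1.81 in isolation, and fell by 0.92 ± 0.22 (adjusted p = 0.00113). In lineage 22 it had 1.15, 1.41 and 1.75 CPM in co-culture, against 2.29, 1.89 and 1.83 in isolation, without overlap and uncalled (-0.49 ± 0.21, adjusted p = 0.0582). BTG2 was called lower in lineage 22 without its co-culture replicate 3 (0.0282) or co-culture replicate 2 of lineage 35 (0.0448), with upper quartile factors (0.0494) and with library totals (edgeR, adjusted p = 0.0154).

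**Figure D2:**
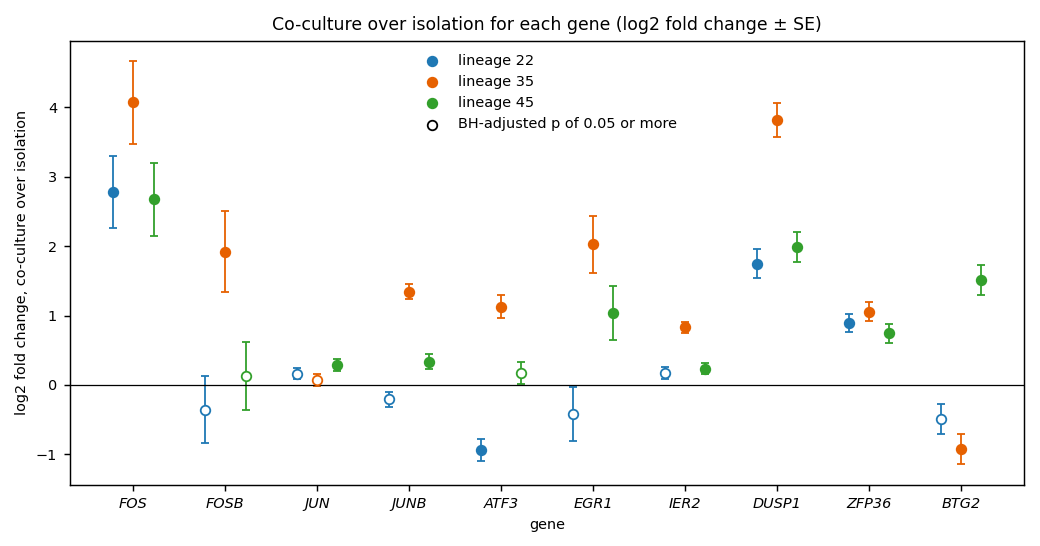
Log2 fold change of each gene, co-culture over isolation, with its standard error from edgeR, for lineages 22 (blue), 35 (orange) and 45 (green), 3 libraries a group; open points have an adjusted p of 0.05 or more. FOS, DUSP1 and ZFP36 are above 0 and filled in all 3 lineages, whereas ATF3 is -0.93 in lineage 22 and 1.13 in lineage 35 and BTG2 is -0.92 in lineage 35 and 1.51 in lineage 45.

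The count in lineage 45 was 5 higher without its isolation replicate 3 or its co-culture replicate 2 or 3. Leaving out the 6 libraries of lineage 35 left the counts at 3 higher and 1 lower in lineage 22 and 8 higher and 0 lower in lineage 45. Each lineage has its own isolated control, so these comparisons share no libraries, but they share a fit and its estimate of the spread. Libraries of co-cultured 22 and 45 with the same number deviated together (r = 0.36, 0.253 and 0.166), so the comparisons may not be independent. ATF3 and BTG2 were called in opposite directions in a pair of lineages, and the share of all genes so called was not computed.

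Whether the change between co-culture and isolation differed between lineages was tested as an interaction. It differed for 7 of 10 genes by an F test over the 3 lineages (55.2% of all genes tested), namely FOSB, JUNB, EGR1, ATF3, DUSP1, IER2 and BTG2. For FOS, JUN and ZFP36 the difference was not called (edgeR, adjusted p = 0.257, 0.299 and 0.34). FOS became a call without co-culture replicate 1 of lineage 35 (adjusted p = 0.0447) and without the 3 co-culture libraries numbered 1 (2.73e-04), and ZFP36 without co-culture replicate 3 of lineage 45 (0.0382). The call of FOSB (adjusted p = 0.0473) was lost under 14 alternatives, with adjusted p up to 0.129. Those 14 included 11 of the 18 omissions of a single library: replicates 1 and 3 of isolated 22, 1 and 3 of co-cultured 22, 2 and 3 of isolated 35, 2 and 3 of co-cultured 35, 1 and 2 of isolated 45 and 2 of co-cultured 45.

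The change was lower in lineage 22 than in lineage 35 for 6 genes and higher for 0 (25.4% and 24.2% of genes tested). All 6 were lower in isolated 35 than in isolated 22, whereas only IER2 of them was called between co-cultured 22 and 35. The co-culture libraries labelled 35 were less like isolated 35 than like isolated 22 and 45. The differences of log2 fold changes, lineage 22 minus 35, were -2.44 ± 0.57 for EGR1, -2.28 ± 0.76 for FOSB, -2.07 ± 0.31 for DUSP1, -2.06 ± 0.24 for ATF3, -1.55 ± 0.15 for JUNB and -0.66 ± 0.12 for IER2 (edgeR, adjusted p = 0.00297, 0.0221, 4.13e-05, 4.05e-07, 6.21e-08 and 8.47e-05). It was lower in lineage 22 than in lineage 45 for 3 genes and higher for 0 (8.08% and 9.25% of genes tested): BTG2 by -2.001 ± 0.31, ATF3 by -1.10 ± 0.23 and JUNB by -0.54 ± 0.15 (adjusted p = 1.76e-04, 0.00227 and 0.0181). The FOSB call was lost without isolation replicate 1 of lineage 22 (0.0535) or isolation replicate 2 (0.0517) or 3 (0.0594) or co-culture replicate 3 (0.0624) of lineage 35. JUNB was not called against lineage 45 without isolation replicate 1 (0.0593) or co-culture replicate 2 (0.0504) of lineage 22. The change was higher in lineage 35 than in lineage 45 for 4 genes and lower for 1 (22.8% and 19.5%). Each of the 4 was lower in isolated 35 than in isolated 45 and uncalled between the co-cultured groups. These were DUSP1 by 1.83 ± 0.31, JUNB by 1.01 ± 0.15, ATF3 by 0.96 ± 0.23 and IER2 by 0.59 ± 0.12, with BTG2 at -2.44 ± 0.31 (edgeR, adjusted p = 1.67e-04, 2.09e-05, 0.0023, 2.92e-04 and 2.42e-06).

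In isolation the lineages differed for most of the genes. Among isolated 22, 35 and 45, 9 of the 10 genes differed by an F test (71.1% of all genes tested), all but JUN (edgeR, adjusted p = 0.206). The call of FOS (adjusted p = 0.046) was lost under 14 alternatives, of which 13 left out a single library (any but co-culture replicate 1 of lineages 22, 35 and 45, co-culture replicate 2 of 35 and co-culture replicate 3 of 45), with adjusted p up to 0.155. Isolated lineage 35 had the lowest mean for 8 genes. Its DUSP1 averaged 6.54 ± 1.54 CPM (SD, n = 3), below 28.2 ± 3.57 in isolated 22 and 29.4 ± 3.68 in isolated 45, whose ranges overlapped. Its JUNB averaged 15.4 ± 1.85 CPM, below 31.2 ± 2.17 in isolated 45 and 40.4 ± 4.01 in isolated 22.

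Isolated lineage 22 exceeded isolated lineage 35 for 8 genes and was below it for 0 (32.2% and 31.4% of genes tested). The largest log2 difference was 2.61 ± 0.57 for FOSB, followed by 2.11 ± 0.23 for DUSP1, 1.97 ± 0.42 for EGR1, 1.82 ± 0.62 for FOS and 1.81 ± 0.17 for ATF3. JUNB (1.397 ± 0.11), ZFP36 (0.55 ± 0.14) and IER2 (0.27 ± 0.08) completed the 8. The call of FOS (edgeR, adjusted p = 0.0212) was lost without isolation replicate 2 (0.0593) or 3 (0.0742) of lineage 35.

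Isolated lineage 35 was below isolated lineage 45 for 6 genes and above it for 1 (27.6% and 24.3% of genes tested). DUSP1 was lower by 2.17 on the log2 scale (-2.17 ± 0.23), FOSB stood at -1.99 ± 0.57, ATF3 at -1.18 ± 0.17, EGR1 at -1.08 ± 0.42, JUNB at -1.02 ± 0.11 and IER2 at -0.52 ± 0.08. The gene above was BTG2 (1.16 ± 0.22). EGR1 (edgeR, adjusted p = 0.0449) was lost under 12 alternatives, which included 10 single libraries: replicates 1 and 3 of isolated 22, 2 and 3 of co-cultured 22, 2 and 3 of isolated 35, 3 of co-cultured 35, 1 and 2 of isolated 45 and 3 of co-cultured 45, with adjusted p up to 0.175.

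Isolated lineages 22 and 45 were closer. Lineage 22 was above 45 for 4 genes and below it for 1 (18.6% and 19.8% of genes tested), with BTG2 at 1.21 ± 0.22, ATF3 at 0.63 ± 0.16, JUNB at 0.38 ± 0.11, ZFP36 at 0.36 ± 0.13 and IER2 at -0.26 ± 0.08 (edgeR, adjusted p = 2.02e-04, 0.00356, 0.00868, 0.0387 and 0.0172). ZFP36 was lost without isolation replicate 1 (0.131) or 3 (0.0803) of lineage 22 or any isolation replicate of lineage 45 (0.0842, 0.0524 and 0.122), IER2 without isolation replicate 3 of 22 (0.062) or 1 of 45 (0.0938) and JUNB without isolation replicate 1 of 22 (0.059). The count was then 3 without isolation replicate 1 or 3 of lineage 22 or isolation replicate 1 of lineage 45.

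After co-culture and sorting, 3 of the 10 genes differed among the lineages by an F test (36.8% of all genes tested): BTG2, IER2 and ZFP36 (edgeR, adjusted p = 2.89e-04, 0.00175 and 0.00805). The call of ZFP36 was lost without the 3 co-culture libraries numbered 1 (0.112). ATF3 became a call without co-culture replicate 2 of lineage 22 (0.0417) or isolation replicate 1 of lineage 45 (0.0376) and in the fit of the co-culture groups alone (edgeR, adjusted p = 0.0411). The ratio of the highest to the lowest group mean was smaller in co-culture than in isolation for 9 of the 10 genes, and so it was for 74.7% of the 14380 genes tested that have both ratios. For FOSB it was 1.26 in co-culture and 6.09 in isolation, for DUSP1 1.27 and 4.50, for EGR1 1.48 and 3.91, for FOS 1.45 and 3.53, for ATF3 1.39 and 3.51 and for JUNB 1.12 and 2.63. It was nearly level for JUN at 1.08 and 1.11, ZFP36 at 1.43 and 1.47 and IER2 at 1.31 and 1.44. BTG2 was the exception, at 2.44 in co-culture and 2.32 in isolation. These ratios are a description with no test.

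**Figure D3:**
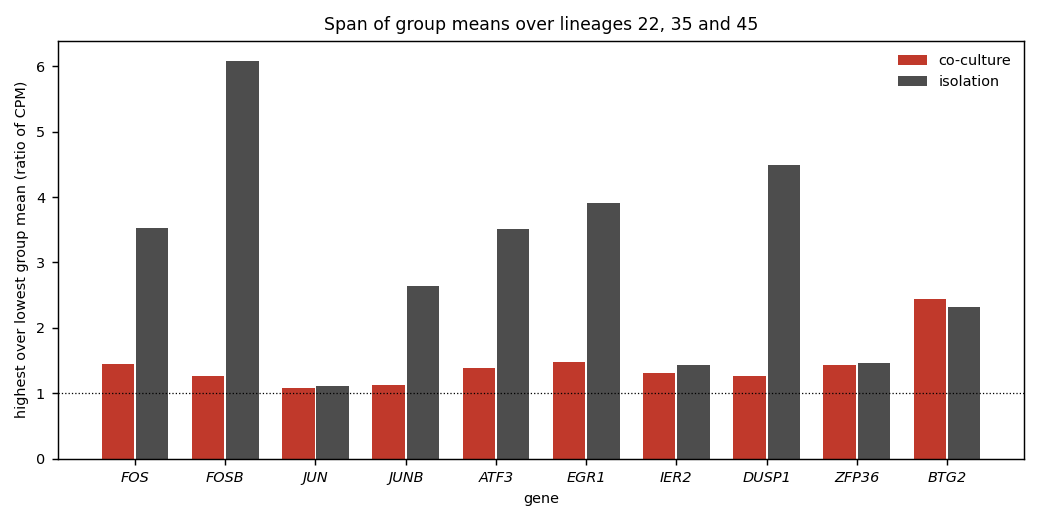
Ratio of the highest to the lowest group mean of CPM over lineages 22, 35 and 45, in co-culture (red) and in isolation (grey), each mean over 3 libraries; a ratio of 1 (dotted line) would mean equal means. The bar is lower in co-culture for 9 of 10 genes, with FOSB at 1.26 in co-culture and 6.09 in isolation. The lowest isolation mean is that of lineage 35 for all genes but JUN and BTG2.

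Between co-cultured lineages, 4 genes were called in at least 1 pair: ZFP36, IER2, BTG2 and ATF3. Lineage 22 had more ZFP36 than lineage 35 (0.39 ± 0.13 on the log2 scale, adjusted p = 0.0258) and less IER2 (-0.39 ± 0.08, adjusted p = 0.00104), 2 genes called where 31.1% of genes tested were. The ZFP36 call was lost without co-culture replicate 1 (0.0698) or 3 (0.0511) of lineage 22 and without co-culture replicate 1 (0.111) or 2 (0.102) of lineage 35. Lineage 22 had more ZFP36 than lineage 45 as well (0.51 ± 0.13), and less BTG2 (-0.79 ± 0.21), ATF3 (-0.47 ± 0.16) and IER2 (-0.32 ± 0.08), 4 genes called where 25.2% of genes tested were (edgeR, adjusted p = 0.00623, 0.00903, 0.0381 and 0.00661). The replicate numbers of these 2 groups may pair their libraries, and a fit of these groups alone called 7 genes with the replicate number as a block and 1 without it, while the fit of all groups called 4 with and without the block. The ATF3 call was lost without co-culture replicate 1 (0.112) or 3 (0.118) of lineage 22 or co-culture replicate 1 (0.0735) or 2 (0.143) of lineage 45 and without the 6 libraries of lineage 35 (0.0616). In the fit of these groups alone ATF3 (0.0579), BTG2 (0.0501) and IER2 (0.0867) were not called, and without the 3 co-culture libraries numbered 1 ATF3 (0.187), BTG2 (0.0515) and ZFP36 (edgeR, adjusted p = 0.0787) were not. Lineage 35 had less BTG2 than lineage 45 (-1.28 ± 0.22, adjusted p = 3.55e-04), its only called difference, where 12.7% of genes tested were called.

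The replicate number went with the level of some members. In 7 of 7 isolation groups, over both tables, the library numbered 1 had the highest FOS, FOSB and EGR1 of its group. In 3 of 3 co-culture groups it had the lowest FOS, FOSB, EGR1 and DUSP1. JUN ran the other way in isolation, where the library numbered 1 was the lowest in 6 of 7 groups. ATF3 was highest in the library numbered 1 in 6 of 7 isolation groups and DUSP1 in 5 of 7. For the rest this held less often, with IER2 in 4 of 7, JUNB and BTG2 in 3 of 7 and ZFP36 in 2 of 7. The labels do not say what the number marks, and its part in the results was not tested apart from the fits with a replicate block and without these libraries.

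**Figure D4:**
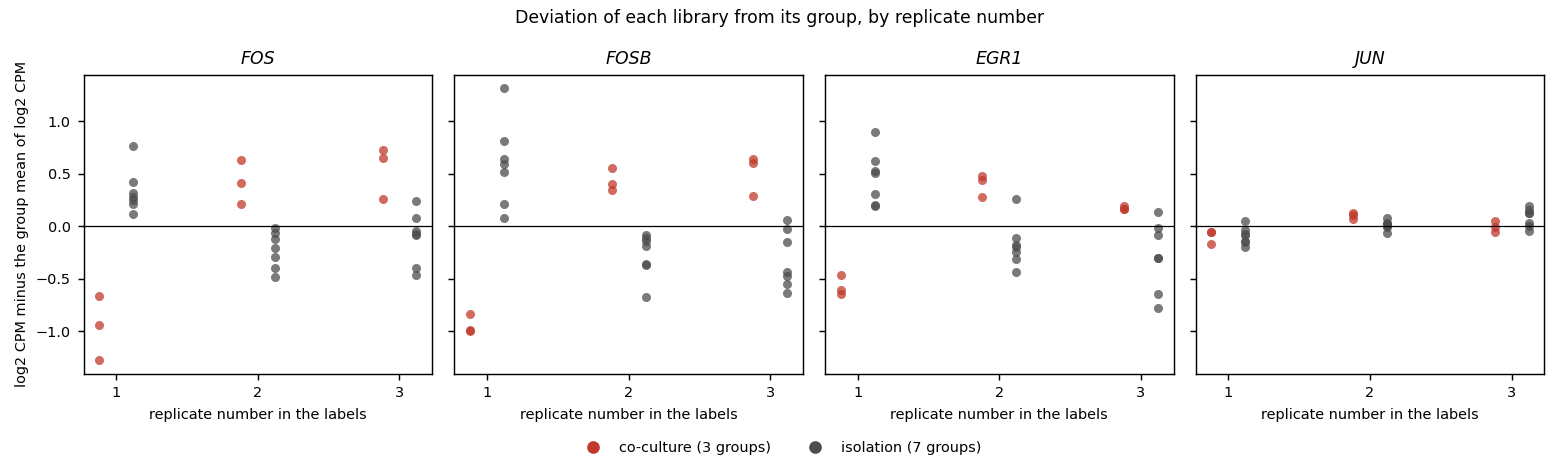
Log2 CPM of each library minus the mean log2 CPM of its group, by the replicate number in the labels, for FOS, FOSB, EGR1 and JUN in the 3 co-culture groups (red) and the 7 isolation groups (grey) of both tables. For FOS, FOSB and EGR1 the library numbered 1 is below its group mean in every co-culture group and above it in every isolation group.

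Other genes of the early response, from a list of 28 of which 27 were tested, were called in both directions. The shares of all genes higher and lower were 27.0% and 30.0% in lineage 22, 32.7% and 32.9% in 35 and 18.6% and 23.2% in 45. In lineage 22, 7 of the list were higher and 12 lower, with a median log2 fold change of -0.15 (all genes -0.04). The share higher there is close to that of all genes. KLF4 (-1.19 ± 0.08) and EGR2 (-3.40 ± 0.41) fell, and the AP-1 subunit JUND (0.87 ± 0.10) and the matricellular CCN2 (0.79 ± 0.08) rose. In lineage 35, 15 were higher and 3 lower (median 0.38, all genes 0.01), led by the small GTPase RHOB (3.01 ± 0.12), CCN1 (1.47 ± 0.09), JUND (1.39 ± 0.10) and CCN2 (1.26 ± 0.08). In lineage 45, 6 were higher and 10 lower (median -0.14, all genes -0.03), with JUND (0.72 ± 0.10), RHOB (0.72 ± 0.11) and CCN2 (0.40 ± 0.08) higher and KLF4 (-0.98 ± 0.08) lower. The named genes are those with the smallest p in each comparison, with edgeR adjusted p between 3.86e-14 and 3.28e-04.

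Inhibitors of ERK signalling and delayed early genes (15 tested), which include phosphatases and Sprouty proteins that damp the pathway, were called most often in lineage 35, where the share of all genes called was also the highest. There 11 were higher and 1 lower (median 0.49; 32.7% and 32.9% of all genes), with the nuclear ERK phosphatases DUSP4 (1.99 ± 0.10) and DUSP5 (1.78 ± 0.10) and the receptor signalling inhibitor SPRY4 (1.49 ± 0.10). Lineage 22 had 6 higher and 1 lower (median 0.09; 27.0% and 30.0% of all genes), with DUSP4 at 0.56 ± 0.09, while in lineage 45, 3 were higher and 3 lower (median 0.07; 18.6% and 23.2%), with DUSP5 at 0.63 ± 0.10. Of 22 upstream kinases and transcription factors, 6 were higher and 5 lower in lineage 22, where the share higher is close to that of all genes. Lineage 35 had 8 higher and 8 lower, close to the shares of all genes (32.7% and 32.9%). Lineage 45 had 6 higher and 4 lower, against 18.6% and 23.2% of all genes. ELK1, a partner of serum response factor at CArG boxes, fell in all 3 lineages (-0.70 ± 0.09, -0.96 ± 0.09 and -0.45 ± 0.09), and SRF itself fell in lineage 35 (-0.84 ± 0.09, edgeR, adjusted p = 1.08e-07).

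Of 16 tested targets of serum response factor that depend on actin, 10 were higher and 2 lower in lineage 22 (median 0.37), 4 and 8 in lineage 35 (median -0.21) and 8 and 2 in lineage 45 (median 0.13). For this list and the next, the shares of all genes higher and lower were 27.0% and 30.0% in lineage 22. They were 32.7% and 32.9% in lineage 35 and 18.6% and 23.2% in lineage 45. The actin-binding TAGLN rose in lineages 22 (1.47 ± 0.19) and 45 (1.18 ± 0.19), whereas the tropomyosin TPM2 fell in all 3 (-2.16 ± 0.18, -2.77 ± 0.19 and -1.86 ± 0.18). Among 18 factors of mRNA decay related to ZFP36 and BTG2, 7 were higher and 4 lower in lineage 22. Lineage 35 had 7 higher and 1 lower, and lineage 45 had 4 higher and 4 lower. The share higher in lineage 35 and both shares in lineage 45 are close to those of all genes. ZFP36L1, a paralogue of ZFP36, fell in lineages 22 (-0.58 ± 0.10) and 45 (-0.42 ± 0.10), and the BTG2 relatives BTG1 (0.99 ± 0.09) and TOB1 (1.18 ± 0.10) rose in lineage 35.

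Genes known to rise when tissue is dissociated or cells are sorted were measured beside the members. Of 13 heat shock genes, 11 were higher and 0 lower in lineage 22 (median 0.56), against 27.0% and 30.0% of all genes. In lineage 35, 8 were higher and 3 lower (median 0.44), against 32.7% and 32.9% of all genes. In lineage 45, 9 were higher and 0 lower (median 0.36), against 18.6% and 23.2% of all genes. The medians of all genes were -0.04, 0.01 and -0.03. DNAJB1, a co-chaperone of HSP70, rose in all 3 lineages (0.69 ± 0.08, 0.67 ± 0.08 and 0.37 ± 0.08), and the co-chaperone BAG3 rose in lineages 22 (0.51 ± 0.08) and 35 (1.06 ± 0.08). The summed CPM of the list was 12230 to 15490 in co-cultured 22 against 8920 to 9568 in isolated 22, 12300 to 13680 against 11320 to 12260 in lineage 35, and 12910 to 14400 against 10220 to 10810 in lineage 45. HSPA1A and HSPA1B in this list are near-identical, so reads may be split between them. The part of sorting in the rise of the immediate early genes was not tested, since no isolated lineage was sorted.

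MALAT1, a long nuclear RNA, was lower in co-culture in every lineage, at 30.9 ± 23.8 CPM in co-cultured 22 against 302 ± 17.1 in isolated 22, 14.3 ± 1.10 against 151 ± 19.3 in lineage 35 and 26.8 ± 14.1 against 149 ± 3.85 in lineage 45. Its relation to the members was not tested. Leukocyte markers summed to 67.5 to 73.9 CPM in co-cultured lineage 35 against 10.7 to 26.7 in isolated 35, nearly all of it LAPTM5, while in lineages 22 and 45 they were lower in co-culture (142 to 157 against 200 to 229.6, and 91.5 to 99.9 against 142 to 180). Endothelial and erythroid markers, nearly all ESAM, summed to 124 to 134 CPM in co-cultured 35 against 6.29 to 7.37 in isolated 35, 140.0 to 149.8 in co-cultured 22 against 95.7 to 99.4 in isolated 22, and 125.0 to 138 in co-cultured 45 against 117 to 123.5 in isolated 45. CD3E and HBB were at most 0.0286 and 0.0321 CPM in a library, and the pan-leukocyte gene PTPRC reached at most 1.27 CPM. The part of these levels in the results for the 10 genes was not tested.

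Among the isolated groups of the second table, 7 of the 10 genes differed by an F test (75.9% of all genes tested), namely FOS, JUN, JUNB, ATF3, DUSP1, IER2 and BTG2. EGR1, FOSB and ZFP36 were not called (edgeR, adjusted p = 0.0947, 0.117 and 0.288). EGR1 became a call without replicate 1 of lineage 03 (0.027) or replicate 1 (0.0152) or 3 (0.021) of lineage 13, and FOSB without replicate 1 of lineage 03 (0.0468) or of lineage 13 (0.00229). FOS (adjusted p = 0.0258) was lost without replicate 2 (0.087) or 3 (0.0615) of lineage 10 or replicate 1 of Pop (0.0715). Levels in this table are not set against those of the first, since the tables were made separately.

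DUSP1 was highest in Pop. It had 11.7, 10.1 and 13.0 CPM in isolated 03, 18.9, 14.5 and 14.0 in isolated 10 and 9.36, 5.61 and 6.84 in isolated 13, against 20.3, 17.9 and 19.2 in Pop. Lineages 03 and 13 lay wholly below Pop, and lineage 10 overlapped it. The log2 fold changes against Pop were -0.72 ± 0.17 for lineage 03 and -1.396 ± 0.17 for lineage 13 (edgeR, adjusted p = 0.00286 and 2.16e-05).

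JUNB was highest in lineage 03. It had 54.9, 55.0 and 62.5 CPM in isolated 03, 29.6, 30.9 and 29.3 in isolated 10 and 28.7, 28 and 29.6 in isolated 13, against 37.6, 32.1 and 36.2 in Pop. No library of lineages 10 and 13 reached the lowest of Pop, and all of lineage 03 lay above it. The log2 fold changes against Pop were 0.70 ± 0.08, -0.24 ± 0.08 and -0.29 ± 0.08 (edgeR, adjusted p = 1.09e-05, 0.0302 and 0.00926). That of lineage 10 was lost without any replicate of lineage 10 (0.0881, 0.0521 and 0.0926) or replicate 1 (0.0737) or 3 (0.0844) of Pop, with library totals (0.109), with no filter (0.0529) and in the fit of the compared groups alone (0.0524).

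JUN was highest in lineage 10, with 202, 208 and 211 CPM, against 144, 162 and 174 in Pop. In lineage 03 it had 129, 147 and 156 CPM and in lineage 13 it had 129, 148 and 168 CPM. Lineage 10 stood above every library of the other groups (0.37 ± 0.10 against Pop on the log2 scale, edgeR, adjusted p = 0.0111), while 03, 13 and Pop overlapped.

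FOS, FOSB and EGR1 were less even within groups. FOS had 3.25, 1.95 and 3.22 CPM in isolated 03, 2.56, 1.56 and 2.17 in isolated 10 and 6.37, 3.06 and 2.72 in isolated 13, against 4.93, 3.93 and 4.02 in Pop. EGR1 had 36.9, 16.7 and 12.6 CPM in lineage 13, and FOSB 5.09, 1.28 and 1.32, so replicate 1 of lineage 13 was far above the other libraries of its group. FOS was lower in lineage 10 than in Pop (-1.03 ± 0.31, edgeR, adjusted p = 0.0164), a call lost without replicate 2 of lineage 10 (0.0744) or replicate 1 of Pop (0.0621). In the other lineages FOSB had 3.03, 1.33 and 1.27 CPM in 03 and 1.84, 1.59 and 1.83 in 10, against 4.35, 3.28 and 3.69 in Pop. EGR1 had 24.7, 13.0 and 13.0 CPM in 03 and 13.1, 10.5 and 10.7 in 10, against 24.9, 19.3 and 21.6 in Pop.

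ATF3 had 15.7, 11.7 and 16.3 CPM in isolated 03, 9.08, 8.80 and 7.93 in isolated 10 and 10.6, 4.14 and 4.84 in isolated 13, against 12.9, 10.9 and 12.5 in Pop. Lineage 13 was lower than Pop in every library (-0.89 ± 0.27, edgeR, adjusted p = 0.0147), and this call was lost without its replicate 2 (0.063) or 3 (0.0591) or replicate 1 of Pop (0.066) and in the fit of the compared groups alone (0.0613). IER2 had 76.9, 84.1 and 84.2 CPM in isolated 03, 62.1, 61.9 and 59.2 in isolated 10 and 87.5, 85.3 and 78.6 in isolated 13, against 74.2, 77.0 and 85.4 in Pop. Lineage 10 was the lowest, without overlap (-0.37 ± 0.07 against Pop, edgeR, adjusted p = 0.00144).

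BTG2 had 0.70, 0.47 and 0.79 CPM in isolated 03, 1.4, 1.56 and 1.58 in isolated 10 and 0.99, 0.97 and 0.92 in isolated 13, against 0.82, 1.29 and 1.64 in Pop. Lineage 03 lay below every library of Pop (-0.94 ± 0.27, edgeR, adjusted p = 0.0104), on 16 to 26 counts per library, and this call was lost without its replicate 2 (0.0528) or replicate 3 of Pop (0.0582). ZFP36 was nearly level, at 12.7 ± 2.63 CPM in lineage 03, 14.6 ± 0.755 in lineage 10 and 14.1 ± 0.151 in lineage 13, against 12.3 ± 1.85 in Pop (SD, n = 3 each).

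**Figure D5:**
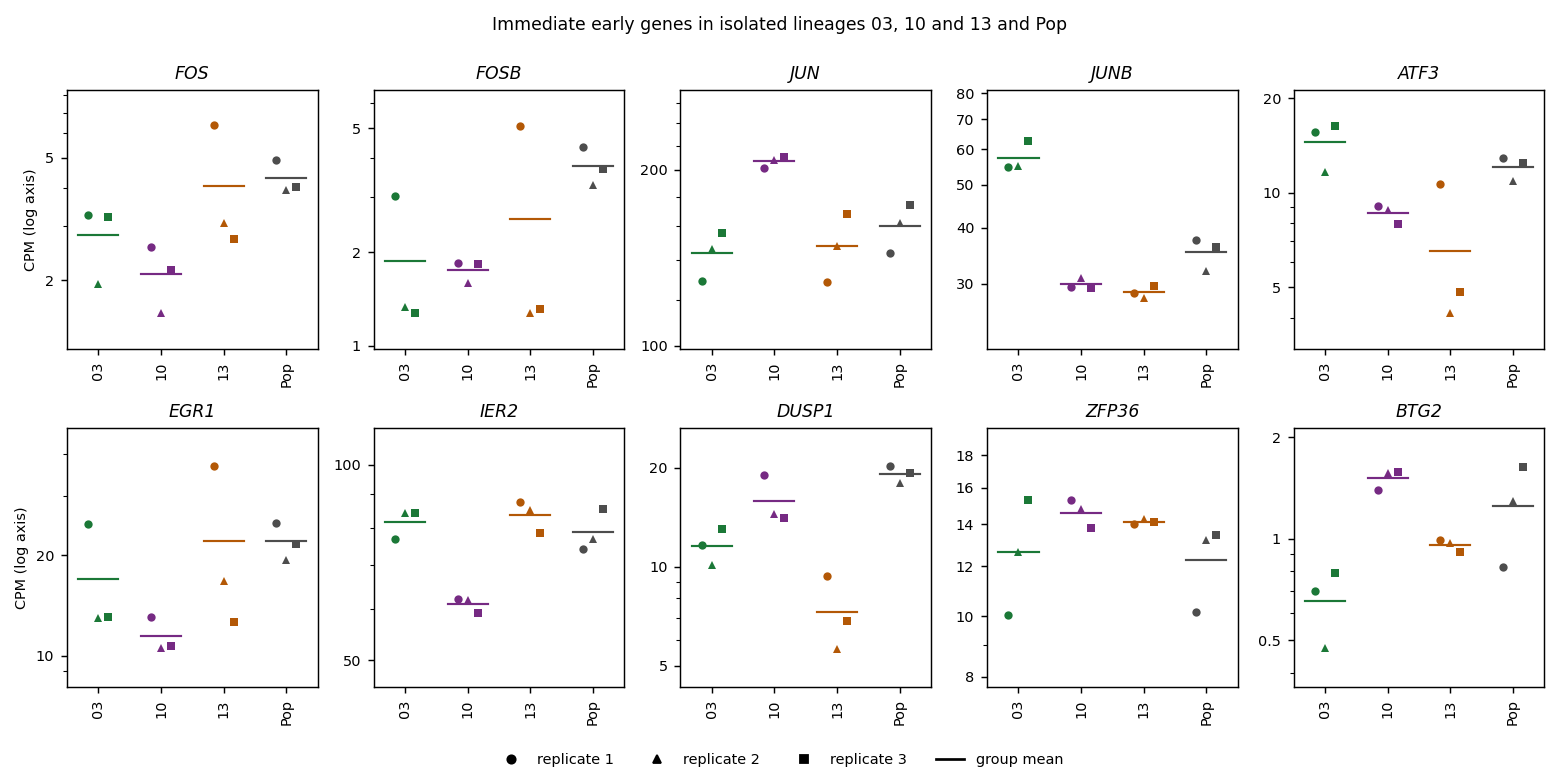
TMM-normalized CPM on a log axis of each of the 10 genes in the 12 isolation libraries of the second table, by lineage 03, 10, 13 and Pop, with the marker shape giving the replicate number and the bar the group mean of 3 libraries. JUNB is highest in lineage 03 (54.9 to 62.5 CPM), JUN in lineage 10 (202 to 211) and DUSP1 is lowest in lineage 13 (5.61 to 9.36).

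In all, lineage 03 differed from Pop for 3 genes, 1 higher and 2 lower (48.7% of genes tested were called), lineage 10 for 4, 1 higher and 3 lower (42.3%), and lineage 13 for 3, all lower (45.2%). Lineage 03 exceeded lineage 10 for 3 genes and was below it for 3 (51.4% of genes tested were called), with JUNB at 0.94 ± 0.08, ATF3 at 0.76 ± 0.26, IER2 at 0.42 ± 0.07, BTG2 at -1.21 ± 0.26, JUN at -0.52 ± 0.10 and DUSP1 at -0.45 ± 0.17. It exceeded lineage 13 for 3 genes and was below it for 0 (53.2%), with ATF3 at 1.15 ± 0.27, JUNB at 0.998 ± 0.08 and DUSP1 at 0.67 ± 0.17. Lineage 10 exceeded lineage 13 for 2 genes and was below it for 2 (34.6%), with DUSP1 at 1.12 ± 0.17, JUN at 0.48 ± 0.10, FOS at -0.95 ± 0.31 and IER2 at -0.46 ± 0.07. ATF3 between lineages 03 and 10 was lost without 6 of the 12 libraries (replicates 1 and 3 of 03, each replicate of 10 and replicate 1 of Pop, adjusted p up to 0.085), DUSP1 without replicate 1 (0.075) or 2 (0.145) of 03 or 1 of 10 (0.184), and FOS between 10 and 13 without replicate 2 (0.121) or 3 (0.073) of 10 or 1 of 13 (edgeR, adjusted p = 0.19) or in the fit of those groups alone (0.0561). The comparisons with Pop share the Pop libraries. Without replicate 1 of lineage 13 the count against Pop was 5 for lineage 03 and 7 for lineage 10, and for lineage 10 it was 2 without its replicate 2 or without replicate 1 of Pop.

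The 10 genes did not vary as one. The r of each with the mean of the other 9 was 0.32 for JUN and 0.0067 for BTG2 in the first table and at least 0.61 for the rest. In the second it was -0.40 for JUN, -0.36 for ZFP36, -0.13 for JUNB, -0.035 for IER2 and 0.017 for BTG2, so 5 of the 10 did not follow that mean. Outside the list, the genes whose level most resembled the mean of the 10 members were found by Pearson r of log2 CPM over libraries, among 10702 genes with a mean of at least 5 CPM in the first table and 10845 in the second. Over the 18 libraries of the first table they were MPP2 (r = 0.93), PIP5K1A (0.92), NUAK2 (0.92), ADIPOR2 (0.91), IL11 (0.91), FYN (0.91), LETM2 (0.91), ATG101 (0.91), ZRANB1 (0.90) and UBE2Q1 (0.90). Over the 12 libraries of the second they were HSPA8 (0.90), EREG (0.84), RHOB (0.83), CD274 (0.82), INPP5B (0.81), PPP2CB (0.80), CROT (0.80), YAF2 (0.80), DDIAS (0.79) and KCNAB2 (0.78). These r describe likeness only and have no p, since the libraries fall into groups of 3 and share their preparation. No gene was among the 10 in both tables.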

How the data were processed

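RNA of 30 libraries was sequenced as paired 75 nt reads after library preparation with a stranded mRNA kit (input 500 ng), per the labels' protocols. The submitters' processing notes name STAR 2.6.1d, Salmon 1.4.0 and GRCh38; the annotation and the tool that scaled the values are not given in the sources used here. What the authors deposited is 2 tables of 26475 genes, each holding estimated counts scaled for transcript length but not for depth. The tables were made separately, so comparisons stay within a table. Some symbols of the second table read as dates, none of them a gene reported here.

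The estimated counts were rounded and analysed with edgeR 4.0.16 under R 4.3.3 and limma 3.58.1, using TMM factors, the filterByExpr filter (14570 and 14638 genes kept), robust quasi-likelihood F tests from 1 fit per table and Benjamini-Hochberg adjustment over all genes kept at 0.05. CPM are TMM-normalized. Values after ± are the SD for CPM and the SE for log2 fold changes, the latter obtained by dividing the log2 change by the root of F. Biological variation (BCV) came to 10.4% for each table. The calculation was tested on counts simulated with the same spread for all genes. That test does not cover genes whose libraries varied more, such as FOS and FOSB. Likeness between genes was measured on log2 CPM (prior count 2).

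The 10 genes and the other lists were chosen with earlier results of these data known. All 10 are named, with up to 4 genes of smallest p from each other list and comparison, the 10 genes most like their mean, and MALAT1. Alternatives were DESeq2 1.42.0, RLE, upper quartile and total count scaling, no filter, at least 5 CPM in 3 libraries, blocking on the replicate number, fitting only the groups compared and leaving out each library. Chosen after seeing the data were fits without the co-culture libraries numbered 1, without lineage 35, with a block within condition and, for co-cultured 22 against 45, a block in these groups alone. Libraries with the same number deviated together from their groups, with r over 0.1 at all 3 numbers, only in co-cultured 22 and 45 (r = 0.36, 0.253 and 0.166). On this ground the replicate numbers may pair those 2 groups; no label states it. Promoter sequences are from RefSeq (GRCh38.p14).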

Additional observations from a re-analysis of the deposited data

Results flagged for a closer look

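The change between co-culture and isolation differed among lineages 22, 35 and 45 for 7 of the 10 genes in edgeR's F test of the interaction, where 55.2% of all genes tested did. The adjusted p was 1.99e-07 for JUNB, 1.47e-06 for ATF3, 2.79e-06 for BTG2, 6.53e-05 for DUSP1, 1e-04 for IER2, 0.00782 for EGR1 and 0.0473 for FOSB. Lineage 35 had the largest rise of JUNB, ATF3, DUSP1, IER2, EGR1 and FOSB and the lowest isolated level of each, and the co-culture libraries of that label were less like isolated 35 than like isolated 22 and 45. BTG2 rose in lineage 45 and fell in lineage 35.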

How the results depend on the processing

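The rises of FOS, DUSP1 and ZFP36 in all 3 lineages kept their direction and call in edgeR and under every alternative run. Of co-culture against isolation, the 3 genes higher in lineage 22 became 5 with DESeq2 and in the fit of the compared groups alone. The 1 lower there became 2 with upper quartile scaling and 3 with total counts or a replicate block within condition. The 8 higher in lineage 45 became 5 with total counts. The stricter filter removed BTG2, so the 1 lower in lineage 35 and the 1 that differed between co-cultured 35 and 45 became 0. Between co-cultured 22 and 45, 4 became 1 in the fit of these groups alone and without the 3 co-culture libraries numbered 1, and 7 in the fit of these groups with a replicate block. Between co-cultured 22 and 35, 2 became 1 without the libraries numbered 1. With a block within condition, 8 genes (against 5) differed in their change between 35 and 45, and 5 (against 3) among co-cultured lineages.

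Leaving out each library gave 3 to 4 higher and 1 to 2 lower in lineage 22, and 5 to 8 higher in lineage 45. It gave 1 to 2 between co-cultured 22 and 35, 3 to 5 between isolated 22 and 45, 2 to 5 between 03 and Pop and 2 to 7 between 10 and Pop. FOSB in lineage 45, uncalled, ranged between -0.20 and 0.48 on the log2 scale, with -0.09 without isolation replicate 3 and -0.20 without co-culture replicate 3 of that lineage.

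With the replicate number as a block over all groups, 03 against Pop gave 5 genes, against 3, as did the fit of these groups alone. EGR1 in lineage 45 lost its call with the replicate block (1.02 on the log2 scale, edgeR adjusted p = 0.0795), and so did FOSB in the interaction (adjusted p = 0.0787) and EGR1 between isolated 35 and 45 (-1.09, adjusted p = 0.0633). ATF3 among co-cultured lineages became a call (0.0436), as did EGR1 (0.00775) and FOSB (0.0241) in the second table. The causes were not tested. BTG2 rests on 16 to 95 counts per library and FOSB in isolated 35 on 20 to 44, which limits their precision.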
